A study of Mus musculus with 6 samples.

Results

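The genes described here are 10 genes of microglia, the resident macrophages of the brain, measured by RNAseq in the mouse hippocampus. They were chosen by name from 54838 annotated genes: Csf1r, Cx3cr1, P2ry12 and Tmem119 as receptors and surface proteins of resting microglia, Aif1 and Cd68 as general markers of these cells, Trem2, Tyrobp and Cst7 as genes of their activated state, and Dok3, an adaptor protein of myeloid cells. Dok3 stood among the genes that the study had selected on the RNAseq of these same mice for a further assay, so its genotype difference is given as a description without a test. The other 9 were listed with earlier results of these mice known.

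Hippocampal RNA of 3 wild-type females and 3 Tg(ORAI1)Ibd females was sequenced, with 1 library per mouse, and all mice were 7 months old and on the FVB/NJ background. The transgenic line carries a human ORAI1 cDNA, the pore subunit of the store-operated calcium channel, behind the mouse Thy1.2 cassette, which is used to drive transgenes in neurons. Counts on mouse Orai1 served as a check of the labels and lay at 7.16 to 8.08 CPM, counts relative to the TMM-scaled library total, in wild-type and 313 to 331 CPM in transgenic libraries. The libraries held 37414241 to 52497799 counts, and the genotype comparison asked which transcripts differ between the hippocampi.

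Microglia depend on signals from the colony-stimulating factor receptor Csf1r, and they read neurons through the fractalkine receptor Cx3cr1 and the ADP receptor P2ry12, which steers their processes toward released nucleotides. Trem2 is a lipid-sensing receptor that signals through Tyrobp, also called DAP12, whose cytoplasmic motif recruits the kinase Syk. When microglia clear debris or plaques, lysosomal and Trem2-dependent genes such as Cd68 and Cst7 are typically raised while P2ry12 and Tmem119 are lowered. Dok3 is a docking protein that is phosphorylated below immune receptors and dampens their signal through partners such as Grb2, and it has been described as a binding partner of DAP12. In bulk hippocampus a difference in the number of microglia and a difference in RNA per microglial cell cannot be told apart.

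All 10 genes lie on autosomes of the GRCm38 assembly. Dok3 (ENSMUSG00000035711) spans positions 55523231 to 55529296 of chromosome 13 on the minus strand, Aif1 (ENSMUSG00000024397) 35170991 to 35176068 of chromosome 17, minus strand, and Tyrobp (ENSMUSG00000030579) 30413760 to 30417585 of chromosome 7, plus strand. P2ry12 (ENSMUSG00000036353), at 59216272 to 59262871 of chromosome 3 on the minus strand, lies within the span of Med12l on the opposite strand. None of the 10 shared exonic bases with another gene on its own strand, and counting used the strand.

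The letters GGAAGT, the core of the element bound by PU.1 (encoded by Spi1), the ETS-family factor of the myeloid lineage, were searched on both strands in the 250 bases before the RefSeq start. They were found in 3 of the 7 members' windows used here, and in 19.7% of 32851 mouse windows of the same length. Csf1r was left out of the search, and no window of this length was at hand for Tmem119 and Tyrobp. An exon of the gene on the opposite strand covers the P2ry12 window. The 3 windows with a match are shown because they set Dok3 beside a gene of activated microglia, Cst7, and one of resting microglia, P2ry12. The sequences are from RefSeq on GRCm38.p6, run 5′ to 3′ on the strand of the gene, and have the match in capitals, on the gene's own strand in each.
Dok3, chr13:55528539-55528788, minus strand, with the match beginning 59 bases before the start: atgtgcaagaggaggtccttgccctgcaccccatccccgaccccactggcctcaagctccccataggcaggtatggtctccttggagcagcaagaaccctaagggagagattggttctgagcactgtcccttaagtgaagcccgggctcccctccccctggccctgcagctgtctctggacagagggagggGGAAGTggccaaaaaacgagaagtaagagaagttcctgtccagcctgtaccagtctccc
Cst7, chr2:150570165-150570414, plus strand, with the match beginning 62 bases before the start: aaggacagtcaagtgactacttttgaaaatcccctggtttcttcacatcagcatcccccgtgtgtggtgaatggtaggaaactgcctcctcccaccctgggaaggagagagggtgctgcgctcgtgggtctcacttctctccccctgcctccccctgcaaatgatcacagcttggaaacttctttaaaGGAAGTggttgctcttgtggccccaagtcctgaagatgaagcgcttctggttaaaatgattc
P2ry12, chr3:59263019-59263048, minus strand, 30 bases around the match, which begins 51 bases before the start: agctaacaagaaGGAAGTtccccagtgaca
The Dok3 window lies inside the span of Dok3 in the deposited annotation (55523231 to 55529296), so it is not upstream of the whole gene as counted. The Cx3cr1 window, which had no match, also lies inside its gene's span. A match of letters is a description and not a measured binding site, and the windows without a match say nothing about the factor.

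Per length of transcript, the resting-state genes and Tyrobp stood highest and Cst7 by far the lowest. On the FPKM scale (counts scaled by library total and gene length), wild-type levels fell in the order Csf1r at 15.8 ± 2.78 (SD, n = 3), P2ry12 at 13.9 ± 1.49, Tyrobp at 12.7 ± 3.20, Cx3cr1 at 11.1 ± 1.74, Tmem119 at 8.81 ± 1.45, Aif1 at 6.89 ± 1.40, Cd68 at 5.12 ± 1.92, Dok3 at 3.32 ± 0.257, Trem2 at 1.95 ± 0.469 and Cst7 at 0.0503 ± 0.0496. Neighbours in this order from Csf1r down to Cd68 overlapped between mice, whereas Cd68 lay above Dok3, Dok3 above Trem2 and Trem2 above Cst7 in every wild-type mouse. The median wild-type FPKM over the 19087 genes that passed the filter on low counts was 3.78, so Csf1r exceeded 83.0% of those genes, Dok3 47.2% and Trem2 37.2%. The Trem2 level rests on an annotated exonic length of 4946 bp, which joins the exons of its 4 transcripts, against 667 bp for Tyrobp.

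**Figure D1:**
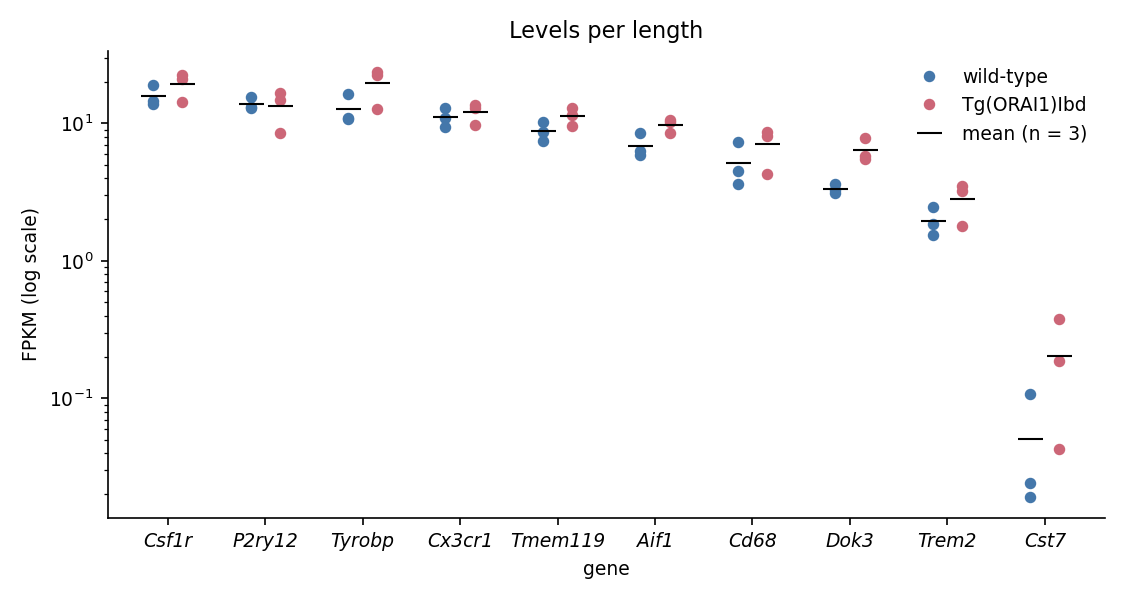
FPKM of the 10 genes on a log axis, in the order of the wild-type mean, with 1 point per mouse (3 wild-type, 3 Tg(ORAI1)Ibd) and a bar at each group mean. From Csf1r to Cd68 neighbouring genes overlap, Dok3 is at 3.10 to 3.60 FPKM in wild-type and 5.48 to 7.80 in transgenic mice, and Cst7 stays at or below 0.380 in all 6.

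In transgenic mice the same order held except at its top. Tyrobp was first at 19.6 ± 6.04 FPKM (n = 3), ahead of Csf1r at 19.3 ± 4.34 and P2ry12 at 13.3 ± 4.24, and these 3 overlapped between mice. Dok3 at 6.34 ± 1.27 FPKM reached into the range of Cd68 at 7.03 ± 2.40.

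The 4 genes of resting microglia did not pass the test between genotypes. Csf1r, the receptor on which microglial survival depends, measured 67.5, 71.2 and 92.3 CPM in the wild-type females and 70.6, 109 and 103 CPM in the transgenic females, a log2 fold change of 0.29 ± 0.18 (SE) with an adjusted p of 0.326 by edgeR's quasi-likelihood test. Cx3cr1, the fractalkine receptor, measured 42.8, 49.4 and 58.1 CPM against 44.0, 60.8 and 58.2 CPM, a log2 fold change of 0.12 ± 0.15 (edgeR adjusted p = 0.642). In both genes 1 transgenic mouse, replicate 1, fell among the wild-type values, and the groups overlapped.

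P2ry12, the ADP receptor, measured 33.1, 33.5 and 39.7 CPM in the wild-type females and 21.8, 42.1 and 37.6 CPM in the transgenic females. The lowest and the highest of the 6 values were both transgenic, and the log2 fold change was -0.068 ± 0.22 (edgeR adjusted p = 0.872). It was the only member below 0, and the sign turned to 0.11 when counts were corrected for the GC content of the genes to 0.17 without transgenic replicate 1 and to 0.024 without wild-type replicate 3. Tmem119, a surface protein that separates microglia from other macrophages, measured 17.3, 20.1 and 23.8 CPM against 22.4, 29.9 and 26.5 CPM. Its log2 fold change was 0.37 ± 0.14 (edgeR adjusted p = 0.141), with 2 of the 3 transgenic mice above every wild-type mouse.

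**Figure D2:**
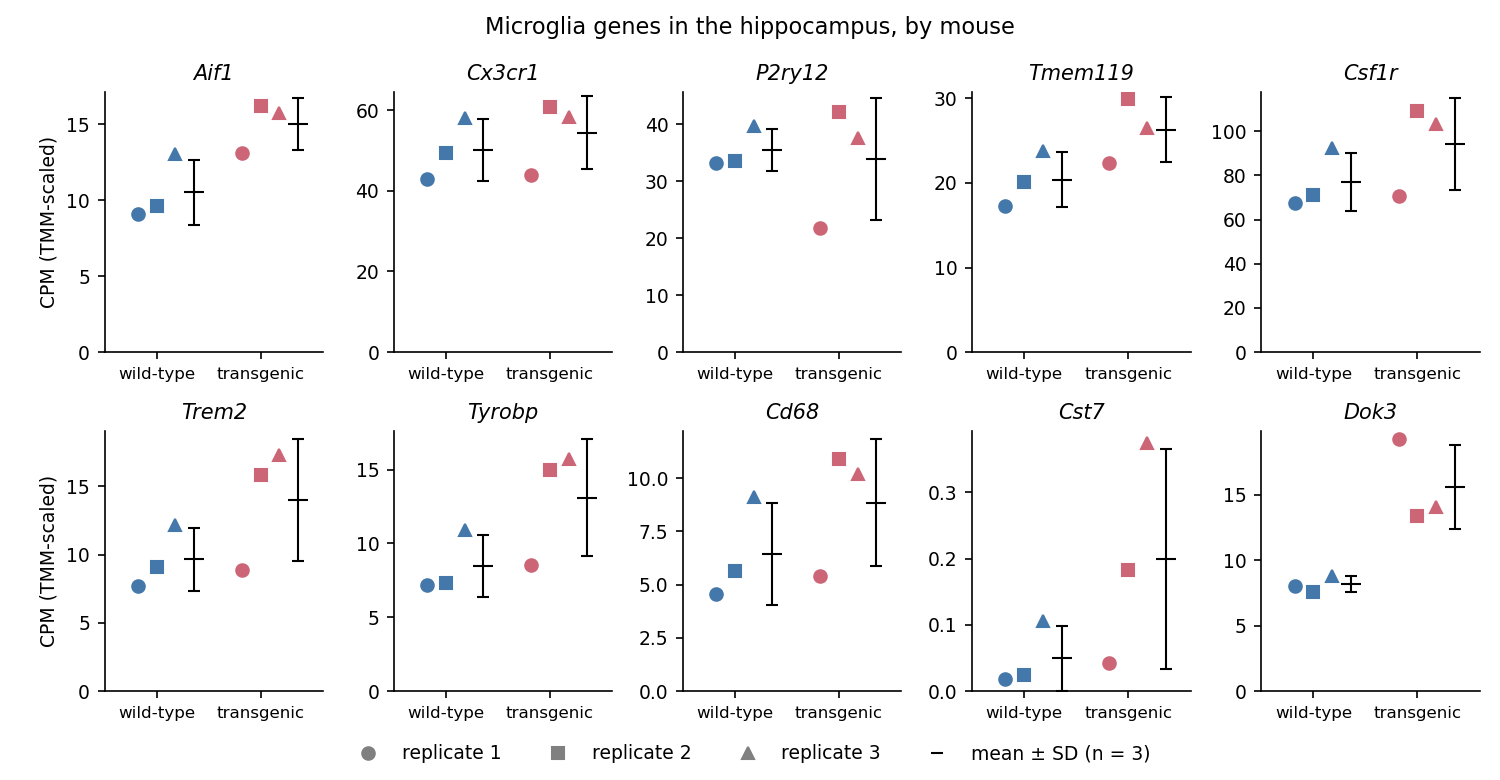
CPM of each of the 10 genes, with 1 point per mouse (circle, square and triangle for replicates 1, 2 and 3 of each genotype, which have no order) and the mean ± SD beside them, on axes that start at 0. The groups are apart in Dok3 and, on this scale but not in FPKM, in Aif1, and overlap in the other 8, where transgenic replicate 1 falls within or below the wild-type values.

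Of the general markers, Aif1 separated the groups by a small gap that depended on the scaling, and Cd68 did not. Aif1, the calcium-binding protein known as Iba1 in tissue staining, measured 9.08, 9.60 and 13 CPM in the wild-type females and 13.1, 16.2 and 15.7 CPM in the transgenic females. The log2 fold change was 0.51 ± 0.15, the edgeR adjusted p 0.0775, and transgenic was higher in 3 of 3 mice, although the lowest transgenic value lay just above the highest wild-type value. On the FPKM scale, which uses unscaled library totals, transgenic replicate 1 (8.48) lay just below wild-type replicate 3 (8.50), and the groups overlapped. Aif1 was called with DESeq2's Wald test (adjusted p = 0.0141), with no filter on low counts and without wild-type replicate 3, and its adjusted p ran from 0.0141 to 0.227 over all alternative fits. Cd68, a lysosomal glycoprotein of phagocytes, measured 4.55, 5.62 and 9.11 CPM against 5.42, 10.9 and 10.2 CPM, a log2 fold change of 0.46 ± 0.32 (edgeR adjusted p = 0.392), with overlap. Left-out mice moved the Cd68 value from 0.27 (without wild-type replicate 1) to 0.80 (without wild-type replicate 3).

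The receptor Trem2 and its adaptor Tyrobp did not pass the test. Trem2 measured 7.68, 9.08 and 12.2 CPM in the wild-type females and 8.85, 15.8 and 17.3 CPM in the transgenic females, a log2 fold change of 0.54 ± 0.26 (edgeR adjusted p = 0.232). Tyrobp measured 7.18, 7.35 and 10.9 CPM against 8.51, 15.0 and 15.7 CPM, a log2 fold change of 0.63 ± 0.26 (edgeR adjusted p = 0.163). In both genes transgenic replicates 2 and 3 lay above all wild-type mice, while replicate 1 lay below wild-type replicate 3. Without replicate 1, their lowest transgenic mouse, both were called (edgeR, with 1149 genes called in all), at log2 fold changes of 0.79 for Trem2 and 0.87 for Tyrobp, and without transgenic replicate 3 these were 0.37 and 0.49, with neither called.

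Cst7, cystatin F, an inhibitor of lysosomal proteases that is switched on in activated microglia, was close to absent. Its raw counts were 1, 1 and 4 in wild-type and 2, 7 and 14 in transgenic mice, too few to pass the filter, and it was not tested. The summed counts, 6 against 23, gave a transgenic to wild-type ratio of 4.14 with an exact 95% interval of 1.64 to 12.4, which covers counting error only and not the spread between mice. The groups overlapped, with transgenic replicate 1 below wild-type replicate 3.

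Counted together, none of the 8 members tested was called by edgeR at an adjusted p under 0.05, where 7.10% of all 19087 genes were called, 3.10% higher and 4.0% lower. Among the 8, 3 (Aif1, Tmem119 and Tyrobp) had an unadjusted p under 0.05, against 27.8% of all genes. DESeq2 called 1 (Aif1), against 13.8% of the genes it tested, and limma-voom called 0, against 6.61%. The log2 fold change was positive in 7 of 8 with a median of 0.42, beside 48.3% positive and a median of -0.010 over all genes tested. The median of the 9 fitted members, Dok3 included, was 0.46, and it was 0.27 without wild-type replicate 1, 0.31 without transgenic replicate 2 and 0.69 without wild-type replicate 3. The smallest p that an exact permutation test (two-sided) allows for 3 mice against 3 is 0.1.

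**Figure D3:**
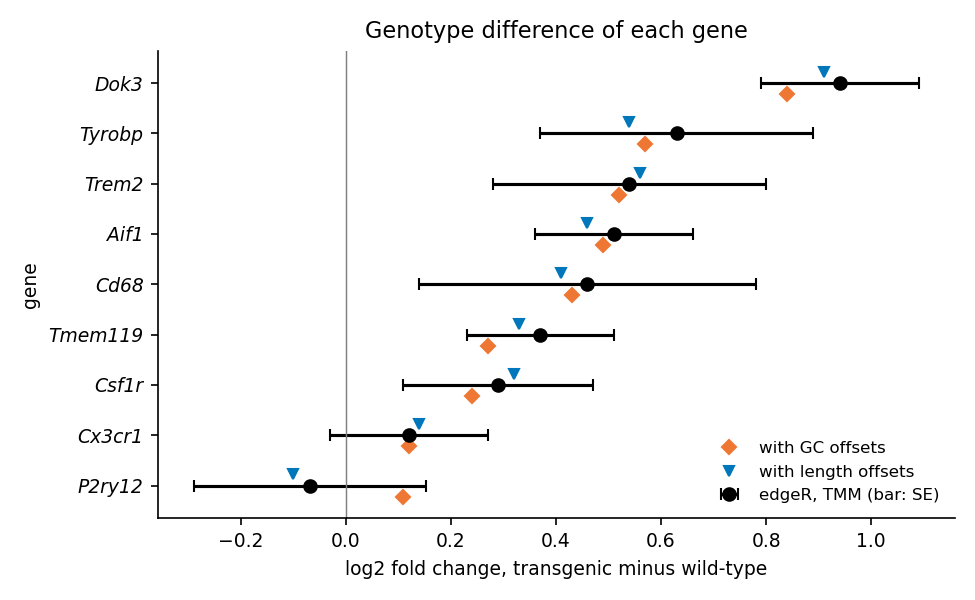
Log2 fold change of the 9 fitted genes, transgenic minus wild-type, with the SE of the edgeR fit as bars, and the values with GC offsets (diamonds) and length offsets (triangles). P2ry12 is the gene whose sign differs between fits, from -0.068 to 0.11 with GC offsets, and Dok3 moves from 0.94 to 0.84.

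With all 6 mice Dok3 had the largest log2 fold change of the 9 fitted members (without transgenic replicate 1 it was 0.76, below Tyrobp at 0.87 and Trem2 at 0.79), and it was highest in the transgenic mouse in which the other 8 were lowest among the transgenic mice. It measured 8.06, 7.61 and 8.82 CPM in the wild-type females and 19.3, 13.4 and 14.1 CPM in the transgenic females, from raw counts of 422, 321 and 334 against 902, 513 and 529. The 3 transgenic values lay above the 3 wild-type values, as was also the case for 16.9% of all genes tested and, among the other members, for Aif1 in CPM but not in FPKM. The log2 fold change of Dok3 was 0.94 ± 0.15, its group means were 8.16 ± 0.615 and 15.6 ± 3.22 CPM (n = 3 each), and with 1 mouse left out at a time the log2 fold change ranged from 0.76 to 1.06. The lowest of these values came without transgenic replicate 1, which had the highest Dok3 count and the lowest level of the other microglia genes among the transgenic mice.

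Across the mice the 8 tested members shared an arrangement, which Dok3 shared in the wild-type mice as to the highest mouse but not in the transgenic mice. In all 8, wild-type replicate 3 was the highest wild-type mouse and transgenic replicate 1 the lowest transgenic mouse, an arrangement held by 21.5% of all genes tested. The genes belong to the same cells and were measured in the same 6 libraries, so the 8 are not independent. Relative to the wild-type mean of each gene, the mean of the 8 on the log2 scale was -0.23, -0.085 and 0.32 in the wild-type mice and -0.093, 0.58 and 0.53 in the transgenic mice. Dok3 on the same scale was -0.015, -0.099 and 0.11 in wild-type and 1.24, 0.72 and 0.79 in transgenic mice. Transgenic replicate 1 was thus near the wild-type mean in the average of the 8, with single members from -0.69 (P2ry12) to 0.33 (Aif1). For Dok3 this mouse was the highest of the 6, and it was the highest transgenic mouse in 39.1% of all genes tested.

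**Figure D4:**
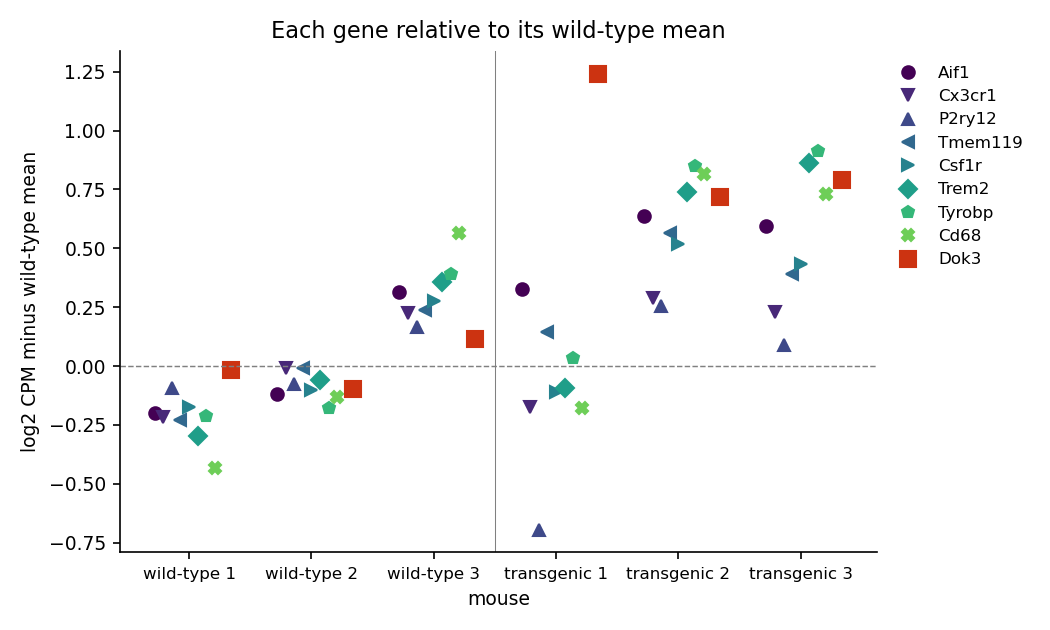
Log2 CPM of each gene minus its wild-type mean, by mouse, for the 8 tested members and for Dok3 (red squares). Wild-type replicate 3 is the highest wild-type mouse for all 8, transgenic replicate 1 is the lowest transgenic mouse for all 8, ranging from -0.69 to 0.33, and Dok3 is at 1.24 in it.

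The astrocyte gene Gfap and the secreted protease inhibitor Cst3 had the same arrangement of mice as the 8, as did 21.5% of all genes tested. Gfap, the intermediate filament of astrocytes, measured 323, 355 and 836 CPM in the wild-type females and 386, 922 and 840 CPM in the transgenic females (log2 fold change 0.50 ± 0.43, edgeR adjusted p = 0.490). Cst3 measured 954, 1048 and 1515 CPM against 1148, 1549 and 1687 CPM (log2 fold change 0.32 ± 0.20, edgeR adjusted p = 0.339). Gfap was added after its values were seen and does not stand for its cell type: 5 of 9 astrocyte genes were above 0, with a median of 0.021 and summed levels of 5106 to 6935 CPM against 5027 to 6250 CPM. The part of whatever separates these mice in the microglia values was not tested.

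Within each mouse, the other members were also set against Cx3cr1, a reference chosen after the values were seen. The ratio of Tyrobp to Cx3cr1 was 0.168, 0.149 and 0.188 in wild-type and 0.193, 0.247 and 0.270 in transgenic mice. The ratio of Aif1 to Cx3cr1 was 0.212, 0.194 and 0.223 against 0.297, 0.267 and 0.270. Of the 7 members compared in this way, 4 (Aif1, Tmem119, Csf1r and Tyrobp) had all transgenic ratios above all wild-type ratios, against 1.65% of all genes tested, most of which lack the arrangement of mice that these genes share. The ratio of P2ry12 to Cx3cr1 overlapped, at 0.774, 0.678 and 0.683 against 0.495, 0.692 and 0.645. The count depended on the reference. It was 6 relative to P2ry12 (3.98% of all genes), 2 relative to Csf1r (0.571%) and 0 relative to Aif1, Tmem119, Trem2, Tyrobp or Cd68 (0.115% to 0.382%). All transgenic ratios lay below all wild-type ratios in 3 members relative to Aif1 (46.6% of all genes), 3 relative to Tyrobp (18.1%), 2 relative to Tmem119 (32.2%), 2 relative to Csf1r (13.1%), 1 relative to Trem2 (12.7%), 1 relative to Cd68 (6.03%) and 0 relative to Cx3cr1 (9.58%) or P2ry12 (2.21%). In the list of homeostatic microglia, 3 of 18 genes lay all higher and 2 all lower relative to Cx3cr1, and 7 all higher and 1 all lower relative to P2ry12. Relative to the other 6 references none of the list lay all higher, and those all lower were 13 of 19 for Aif1, 13 of 19 for Tyrobp, 10 of 18 for Tmem119, 10 of 19 for Trem2, 7 of 18 for Csf1r and 4 of 19 for Cd68. Ratios within a mouse do not show which gene of a pair changed. Dok3 relative to Cx3cr1 was 0.189, 0.154 and 0.152 against 0.439, 0.221 and 0.243.

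None of the 5 genes whose pattern over the 6 libraries was most like that of Dok3 was another member. By Pearson's r of log2 CPM among 14239 genes with a mean log2 CPM above 1, they were Stk25 (r = 0.998), Rab11fip3 (0.998), Ascc2 (0.998), Tubg2 (0.998) and Prkcsh (0.997). These r describe 6 libraries in 2 groups and include the step between genotypes. The log2 fold changes of the 5 were 0.18 to 0.22, against 0.94 for Dok3, so the likeness is of shape and not of size. Among the other members, r with Dok3 ran from -0.46 for P2ry12 to 0.71 for Aif1, which ranked 3264 in likeness.

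To place the members among their pathways, 12 lists with 141 genes of microglial states and signals were described. Of the 130 genes tested besides Dok3, 1 was called higher and 2 lower (edgeR), 2.31% in all against 7.10% of all genes, and 22 or 16.9% had an unadjusted p under 0.05 against 27.8%. The median log2 fold change was 0.14, and 95 genes or 73.1% were above 0. The lists share genes with the members and with each other. Each of the 3 calls was lost in some fits with 1 mouse left out. Ltc4s lost its call without wild-type replicate 1 or 2 or transgenic replicate 2 or 3. Pik3cd lost it without any mouse but wild-type replicate 3, and Rasa1 without wild-type replicate 1 or 2 or transgenic replicate 3. Each kept its direction (log2 fold changes of -1.38 to -1.06, 0.28 to 0.39 and -0.36 to -0.32). Calls over all genes also fell, from 1355 to 77 and 94 without wild-type replicate 1 or 2. They fell to 192 and 108 without transgenic replicate 2 or 3.

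**Figure D5:**
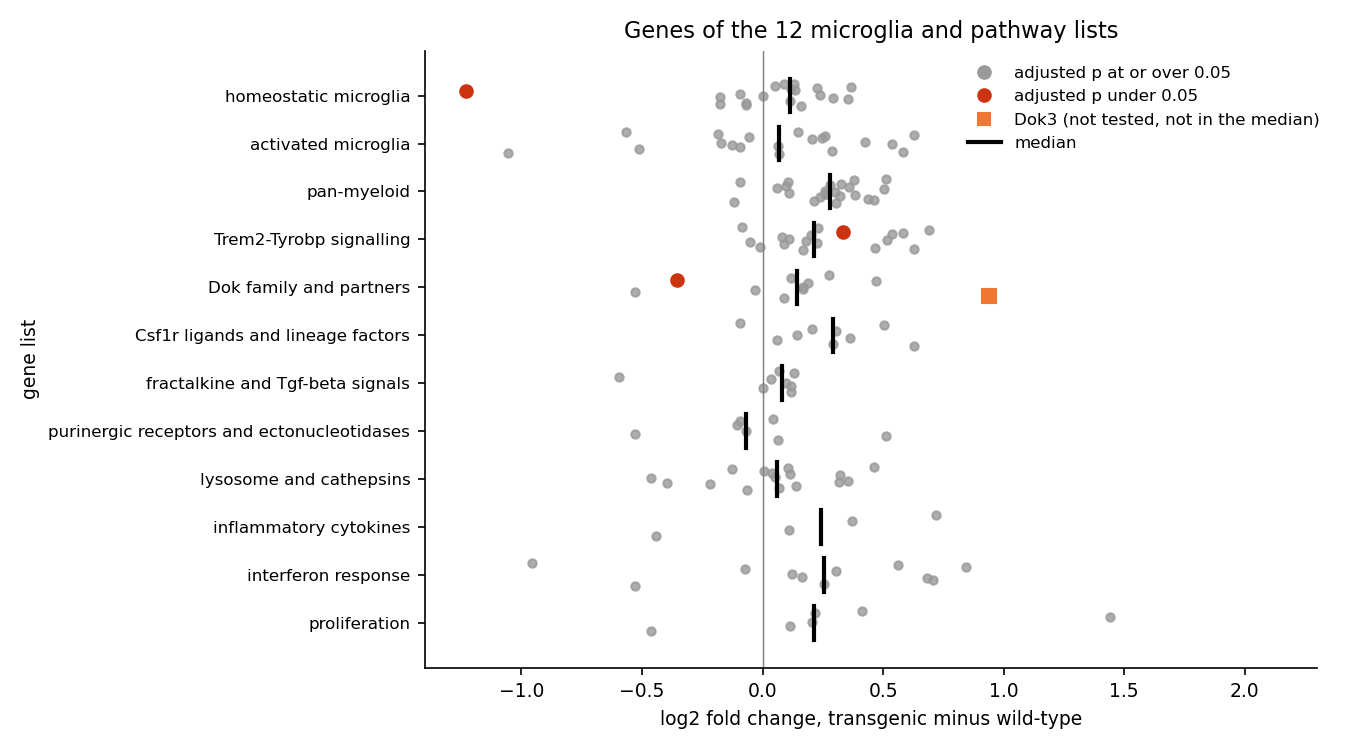
Log2 fold change of every tested gene in the 12 lists, with the median of each list as a black bar, genes with an edgeR adjusted p under 0.05 in red and Dok3 as an orange square outside the medians. The 3 red genes are Ltc4s at -1.23, Pik3cd at 0.33 and Rasa1 at -0.36, and 11 of the 12 medians lie above 0 in this fit, where the exception, the purinergic list at -0.068, is 0.073 with GC offsets, and the homeostatic median of 0.11 is -0.0069 without transgenic replicate 2.

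In the list of homeostatic microglia, 0 of 19 genes were called higher and 1 lower, with a median log2 fold change of 0.11 that was -0.0069 without transgenic replicate 2, 0.012 without transgenic replicate 3 and 0.25 without transgenic replicate 1. The gene that fell was Ltc4s, leukotriene C4 synthase, at 5.27, 6.16 and 3.96 CPM in the wild-type females and 1.91, 2.49 and 2.19 CPM in the transgenic females (log2 fold change -1.23 ± 0.19, edgeR adjusted p = 0.0206). All 3 transgenic values of Ltc4s lay below all wild-type values.

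In the list of activated microglia, 0 of the 19 genes tested were called in either direction (3 at an unadjusted p under 0.05), 11 of the 19 were above 0, and the median was 0.069. The values ran from -1.06 for Spp1, osteopontin, to 0.63 for Tyrobp, and the median from 0.010 without transgenic replicate 3 to 0.20 without wild-type replicate 3 or transgenic replicate 1. Fth1, the heavy chain of the iron store ferritin, was at 1531 ± 144 CPM in the wild-type females and 1834 ± 67.4 CPM in the transgenic females (log2 fold change 0.26 ± 0.079, edgeR adjusted p = 0.0851). Gpnmb, a glycoprotein of lipid-laden phagocytes, was at 2.14, 2.04 and 8.64 CPM against 1.67, 6.60 and 7.32 CPM, with overlap. In the pan-myeloid list 0 of 23 genes were called (2 at an unadjusted p under 0.05), and 21 of 23 were above 0, with a median of 0.28 that was 0.16 without transgenic replicate 2, 0.47 without wild-type replicate 3 and 0.52 without transgenic replicate 1. Its cathepsin Ctss was at 47.4, 50.9 and 74.3 CPM in the wild-type females and 48.0, 86.1 and 81.5 CPM in the transgenic females (log2 fold change 0.32 ± 0.24, edgeR adjusted p = 0.434). Wild-type replicate 3 and transgenic replicate 1 took the same places as in the 8 members in 21 of these 23 genes.

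In the list of Trem2-Tyrobp signalling, which holds the pair itself, its sheddases and its signalling proteins, 1 of 18 genes was called higher and 0 lower, with a median of 0.21. This was Pik3cd, the delta catalytic subunit of phosphoinositide 3-kinase of leukocytes, at 32.7, 28.3 and 34.0 CPM in the wild-type females and 40.7, 39.4 and 39.6 CPM in the transgenic females (log2 fold change 0.33 ± 0.073, edgeR adjusted p = 0.0407). The groups did not overlap, and with GC offsets its log2 fold change was 0.25 and its edgeR adjusted p 0.107. Transgenic replicate 1 was the highest transgenic mouse for Pik3cd. In 16 of the 18 genes of this list that mouse was the lowest transgenic one, against 40.9% of all genes tested. Syk, the kinase recruited by Tyrobp, was at 3.97 ± 0.810 and 4.63 ± 0.495 CPM (edgeR adjusted p = 0.426). Plcg2, the phospholipase further down, had a log2 fold change of 0.080 ± 0.099, and Inpp5d, the inositol phosphatase that opposes the kinase, one of 0.17 ± 0.19 (edgeR adjusted p = 0.647 and 0.609).

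Among the relatives and partners of Dok3, 0 of 10 genes tested were called higher and 1 lower, with a median of 0.14 (0.077 with GC offsets). The gene that fell was Rasa1, the Ras GTPase-activating protein that docks on Dok1 and Dok2, at 84.3, 86.2 and 85.8 CPM in the wild-type females and 67.4, 67.0 and 65.8 CPM in the transgenic females (log2 fold change -0.36 ± 0.039, edgeR adjusted p = 0.00692). Its values within a genotype were close and far from those of the other, while with GC offsets the log2 fold change was -0.21 and the adjusted p 0.0897. Dok1, the founding member of the family, was at 2.41 ± 0.152 and 2.36 ± 0.224 CPM (edgeR adjusted p = 0.910), and Dok2, the other myeloid member, at 0.598 ± 0.218 and 0.815 ± 0.0587 CPM (edgeR adjusted p = 0.337). Grb2, the adaptor that Dok3 binds, was at 159 ± 11.1 and 169 ± 7.12 CPM (edgeR adjusted p = 0.389). In 6 of the 11 genes of this list, Dok3 included, transgenic replicate 1 was the highest transgenic mouse, against 39.1% of all genes.

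Of the signals to the receptors, none of the 9 genes in the list of Csf1r ligands and lineage factors was called (3 at an unadjusted p under 0.05), with a median of 0.29. Il34, the neuronal ligand of Csf1r, was at 34.5, 36.1 and 35.0 CPM in the wild-type females and 41.1, 38.6 and 37.0 CPM in the transgenic females (log2 fold change 0.15 ± 0.055, edgeR adjusted p = 0.139). The groups of Il34 did not overlap in CPM, and with GC offsets its log2 fold change was 0.061. Csf1, the second ligand, had a log2 fold change of 0.21 ± 0.099 (edgeR adjusted p = 0.221). Spi1, which encodes PU.1, was at 2.82 ± 0.605 and 3.49 ± 1.24 CPM, and Irf8, its partner factor, at 5.13 ± 1.29 and 7.26 ± 1.77 CPM (edgeR adjusted p = 0.541 and 0.212). Cx3cl1, the neuronal ligand of Cx3cr1, was at 419 ± 17.0 and 439 ± 44.4 CPM (edgeR adjusted p = 0.616), and 0 of 8 genes of the fractalkine and Tgf-beta list were called, with a median of 0.082 and 1 at an unadjusted p under 0.05. That gene was Itgb8, which was lower, with a log2 fold change of -0.60 ± 0.15 (edgeR adjusted p = 0.0553).

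The other lists held no called gene by edgeR. The medians were -0.068 over 7 purinergic receptors and ectonucleotidases (0.073 with GC offsets, 1 gene at an unadjusted p under 0.05), 0.061 over 16 lysosomal genes (3), 0.24 over 4 inflammatory cytokine genes (1), 0.26 over 11 interferon response genes (1) and 0.21 over 6 proliferation genes (0). These counts are of either direction and need not follow the median. The cytokine gene counted was Ptgs2, with a log2 fold change of -0.44 ± 0.12 (edgeR adjusted p = 0.0674). The lysosomal genes counted included Ctsc at -0.46 ± 0.14 and Lamp2 at -0.39 ± 0.14 (edgeR adjusted p = 0.0777 and 0.113). Of 12 inflammatory cytokine genes listed, 8 did not pass the filter on low counts, among them Il1b at 0.0711 to 0.347 CPM and Tnf at 0.0801 to 0.157 CPM over the 6 mice. Bst2, an interferon-induced membrane protein, was at 4.80, 4.93 and 5.02 CPM in the wild-type females and 1.33, 3.64 and 2.67 CPM in the transgenic females (log2 fold change -0.96 ± 0.31, edgeR adjusted p = 0.0971). Ctsl, a lysosomal cathepsin, was at 84.1 ± 3.77 and 72.4 ± 10 CPM (edgeR adjusted p = 0.193). All 16 lysosomal genes had wild-type replicate 3 highest and transgenic replicate 1 lowest within their genotypes, as the 8 members did.

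Markers of 13 other cell types were read beside the members, since the hippocampus was sequenced whole. The marker list that moved was that of the choroid plexus epithelium, with 15 of 15 genes called lower, a median log2 fold change of -2.73 and a summed level of 3930 to 6078 CPM in the wild-type females and 558 to 873 CPM in the transgenic females. No gene of that list was at 0. Border macrophages, which express several members and reside in choroid plexus and meninges, had 0 of 11 genes called and summed levels of 27.3 to 38.1 CPM against 17.1 to 47.1 CPM. Their receptor Mrc1 was at 5.48, 5.95 and 7.0 CPM in the wild-type females and 1.95, 11.1 and 8.23 CPM in the transgenic females, with transgenic replicate 1 lowest as in the members.

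White blood cell markers were low, and red blood cell genes were present. Of 10 neutrophil markers none passed the filter, with summed levels of 0.317 to 0.650 CPM and 0.300 to 1.05 CPM and Ly6g, Elane and Mmp8 at no more than 3 counts in any library. Of 5 monocyte markers 2 were tested and 0 called, with summed levels of 0.783 to 1.35 and 0.579 to 1.5 CPM. T cell markers summed to 2.22 to 6.47 and 2.14 to 2.99 CPM, with Cd3d and Cd8b1 at no more than 3 counts, and B cell markers to 0.806 to 1.35 and 0.579 to 1.26 CPM. Red blood cell genes, of which 0 of 4 were called, summed to 172 to 244 and 123 to 224 CPM.

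Among brain cells, 0 of 9 astrocyte, 0 of 9 oligodendrocyte, 0 of 6 precursor and 0 of 7 mural genes were called (edgeR), with 3 of the 6 precursor genes and none of the others at an unadjusted p under 0.05, and with summed levels that overlapped between genotypes. Of 10 neuronal genes, Slc17a7, the glutamate transporter of excitatory neurons, rose (log2 fold change 0.26 ± 0.052, edgeR adjusted p = 0.0356) and Gad2, the GABA-synthesizing enzyme, fell (log2 fold change -0.52 ± 0.092, edgeR adjusted p = 0.0272). Of 8 endothelial genes, Cldn5, a tight junction protein, rose (log2 fold change 0.66 ± 0.15, edgeR adjusted p = 0.0430). With GC offsets the log2 fold changes of these 3 were 0.18, -0.41 and 0.54, with adjusted p of 0.106, 0.0804 and 0.102. The part of the choroid plexus, neuronal and endothelial genes in the microglia values was not tested.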

How the data were processed

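The 6 libraries came from hippocampi of single females, 3 per genotype. The authors filtered reads with Trimmomatic, aligned them to mm10 with STAR and counted them with featureCounts. The deposited values are raw counts per gene, whole numbers that were not normalized, beside the exonic length of each gene. Per the file headers, the strand setting was 2 (reversely stranded), the minimum mapping quality 3 and the annotation Ensembl 95 of GRCm38. Positions of the genes are those of the deposited annotation.

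Total counts ran from 37414241 to 52497799 per library. Counting error limits Cst7, and the spread between mice the other members. Genes were kept by edgeR's filterByExpr (minimum count 10), which left 19087, and scaled by TMM. The genotype term was tested in edgeR (quasi-likelihood, 6 libraries, no covariates), with Benjamini-Hochberg adjustment over all genes tested and a threshold of 0.05. Cst7 did not pass the filter, so 8 genes of a planned 9 were tested. CPM were taken relative to TMM-scaled totals, log2 CPM used a prior count of 2, and FPKM were computed here from counts, lengths and library totals. GC and length offsets were loess trends (span 0.5) fitted per library over genes with a mean log2 CPM above 1. The interval of the Cst7 ratio is an exact (Clopper-Pearson) 95% interval. The edgeR, replicate block, DESeq2, limma-voom, unfiltered and GC offset fits were run on simulated counts with known changes. The other alternatives were not. The simulation gave all genes the same spread and had no variation between mice that genes share, so it does not cover such variation. R 4.3.3, edgeR 4.0.16, limma 3.58.1, DESeq2 1.42.0, matplotlib 3.10.9, pandas 2.3.3, numpy 2.4.6 and Python 3.11.15 were used.

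The members and the gene lists were chosen with earlier results of these data known. Genes named besides the members were 13 ligands, partners and lysosomal genes, and in each of the 12 lists up to 3 called genes with the smallest p and those of the 2 highest mean FPKM that are discussed. Gfap, Gpnmb, Spp1, Mrc1, Il1b, Tnf, Slc17a7, Gad2, Cldn5, Itgb8, Ctsc and Lamp2 were added after the values were seen. So were the check of Orai1, the ratios to Cx3cr1 and the counts of mouse order. Alternatives were other scalings, DESeq2's Wald test, limma-voom, other filters on low counts, GC and length offsets, a replicate block and each mouse left out in turn.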

Additional observations from a re-analysis of the deposited data

How the results depend on the processing

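No member was called in the 3 other scalings, with limma-voom, with at least 10 counts in every library or with GC or length offsets. The count of members called was 1 with DESeq2's Wald test (Aif1) and 1 with no filter on low counts (Aif1), and 0 to 2 with 1 mouse left out: Aif1 without wild-type replicate 3, and Trem2 and Tyrobp without transgenic replicate 1. Of 153 alternative values of the 9 fitted genes, 144 kept direction and side of the threshold (for Dok3, which was not tested, direction and size), 5 passed it and 4 turned sign. All 4 were P2ry12, which was 0.11 with GC offsets, 0.089 with GC offsets and the replicate block, and -0.24 to 0.17 with 1 mouse left out (0.024 without wild-type replicate 3 and 0.17 without transgenic replicate 1). The median of homeostatic microglia ran from -0.0069 to 0.25 with 1 mouse left out. With 1 mouse left out Cx3cr1 ran from 0.029 to 0.25, Csf1r from 0.20 to 0.47, Trem2 from 0.37 to 0.79 and Tyrobp from 0.49 to 0.87. The FPKM order was the same in TPM.

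Over all genes, 1355 were called, and 2230 with DESeq2, 738 with the replicate block, 771 with length offsets, 412 with GC offsets, 485 with GC offsets and the block, and 77 to 1149 with 1 mouse left out: 77 and 94 without wild-type replicate 1 or 2, 192 and 108 without transgenic replicate 2 or 3, 1031 without wild-type replicate 3 and 1149 without transgenic replicate 1. The cause was not tested. Whether the replicate numbers behind the block pair the mice is not known. Over 11191 genes, deviations of mice with the same number correlated at 0.143 on average (-0.357 to 0.399). For different numbers the average was -0.0918 (-0.588 to 0.536). With 3 mice per genotype, centred on their own group, these values cannot decide it. With the block 0 members were called, and Pik3cd lost its call at a log2 fold change of 0.34. Depth limits Cst7, at 1 to 14 counts per library, and not the other members, at 237 counts or more.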
